A study of Mus musculus with 44 samples.

Results

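Snai1 is a zinc-finger repressor best known for switching off epithelial genes, and the study put it into blood progenitors, a cell type outside the epithelium. The 40 genes described here are epithelial junction, polarity and keratin genes that are known repression targets of Snai1 in epithelia. They were taken by name and not by a cut on any measured value, but the list was chosen with earlier results of these data known. All 40 had a row among the 27044 start-site windows kept. The cells were HPC7, a mouse blood progenitor line grown with stem cell factor, transduced with an MSCV-IRES-GFP retrovirus. The vector carried no insert (empty vector), wild-type Snai1, or a mutant Snai1 with phenylalanine replaced by alanine at position 5, which impairs its interaction with the histone demethylase Lsd1. All groups share the vector and GFP, were sorted for GFP a week after transduction and were expanded before chromatin immunoprecipitation. H3K4me2 and H3K4me1 were each sequenced in 3 libraries per construct, and IgG in 2 libraries from wild-type Snai1 cells. Snai1 itself was precipitated with 4 technical replicates per construct, deposited as 1 peak list each. The Snai1 came from a vector and not from the cells' own gene, and gene expression is not analysed here.

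Epithelial cells are held together by tight junctions, adherens junctions and desmosomes, and their intermediate filaments are built from keratins. In epithelia Snai1 binds the hexamer CAGGTG, the Snai1 type of E-box, in the promoters of such genes through its zinc fingers. Its N-terminal SNAG domain holds Lsd1, which removes methyl groups from mono- and dimethylated lysine 4 of histone H3. Dimethylated lysine 4 (H3K4me2) lies mainly at promoters and enhancers in use, and monomethylated lysine 4 (H3K4me1) at enhancers and the flanks of promoters.

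Promoter sequences are shown for the members that had both a wild-type Snai1 peak and a listed promoter, and for 3 others with results below, so that the E-boxes can be read beside the data. RefSeq promoter windows (GRCm38.p6), 250 bases before to 50 after the start site and written along the gene's strand, were matched for 26 of the 40 members. Cdh1, Cdh3, Cldn8, Cldn9, Cldn23, Marveld3, Krt19, Pkp3, Esrp1, Esrp2, Grhl2, Ovol1, Llgl2 and St14 had none in that table. Capitals mark CAGGTG or its reverse complement CACCTG. F11r (chr1:171437311-171437610, plus strand), Crb3 (chr17:57061951-57062250, plus), Cldn4 (chr5:134946885-134947184, minus) and Jup (chr11:100397741-100398040, minus) had a peak of the wild-type list over the window or nearby. Tjp3 (chr10:81291532-81291831, minus), Ocln (chr13:100552449-100552748, minus) and Krt8 (chr15:102004293-102004592, minus) were chosen after their values were seen.
F11r: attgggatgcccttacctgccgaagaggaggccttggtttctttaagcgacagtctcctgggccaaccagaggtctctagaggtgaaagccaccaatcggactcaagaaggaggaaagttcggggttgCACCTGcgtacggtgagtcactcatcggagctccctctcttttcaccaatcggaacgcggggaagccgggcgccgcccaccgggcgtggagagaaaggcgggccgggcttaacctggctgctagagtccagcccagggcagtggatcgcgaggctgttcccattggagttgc
Crb3: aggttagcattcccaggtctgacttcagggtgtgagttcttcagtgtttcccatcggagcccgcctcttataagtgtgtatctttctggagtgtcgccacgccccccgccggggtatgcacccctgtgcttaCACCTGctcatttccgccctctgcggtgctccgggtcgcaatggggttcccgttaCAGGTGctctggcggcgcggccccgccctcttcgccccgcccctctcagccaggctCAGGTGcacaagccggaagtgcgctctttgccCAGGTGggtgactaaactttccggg
Cldn4: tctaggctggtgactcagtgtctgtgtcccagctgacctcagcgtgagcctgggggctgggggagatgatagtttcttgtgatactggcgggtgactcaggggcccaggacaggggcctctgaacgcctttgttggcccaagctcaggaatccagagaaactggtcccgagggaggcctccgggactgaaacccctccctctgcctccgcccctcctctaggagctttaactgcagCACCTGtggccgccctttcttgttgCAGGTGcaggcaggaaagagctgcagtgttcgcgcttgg
Jup: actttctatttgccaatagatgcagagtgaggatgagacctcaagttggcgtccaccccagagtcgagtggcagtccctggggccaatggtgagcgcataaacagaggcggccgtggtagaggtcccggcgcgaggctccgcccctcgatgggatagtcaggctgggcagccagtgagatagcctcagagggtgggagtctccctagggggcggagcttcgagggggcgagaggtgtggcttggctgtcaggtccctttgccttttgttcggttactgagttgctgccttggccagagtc
Tjp3: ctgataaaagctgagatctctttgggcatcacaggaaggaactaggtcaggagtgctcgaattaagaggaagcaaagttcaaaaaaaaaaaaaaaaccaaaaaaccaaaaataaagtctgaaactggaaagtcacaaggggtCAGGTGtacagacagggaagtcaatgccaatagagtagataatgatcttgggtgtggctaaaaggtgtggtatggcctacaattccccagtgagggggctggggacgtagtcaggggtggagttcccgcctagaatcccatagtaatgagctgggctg
Ocln: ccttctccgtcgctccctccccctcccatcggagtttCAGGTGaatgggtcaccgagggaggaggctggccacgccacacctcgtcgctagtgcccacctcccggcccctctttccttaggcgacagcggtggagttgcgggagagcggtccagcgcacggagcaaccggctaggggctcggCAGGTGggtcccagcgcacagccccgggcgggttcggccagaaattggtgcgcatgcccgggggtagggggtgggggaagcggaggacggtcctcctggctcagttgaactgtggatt
Krt8: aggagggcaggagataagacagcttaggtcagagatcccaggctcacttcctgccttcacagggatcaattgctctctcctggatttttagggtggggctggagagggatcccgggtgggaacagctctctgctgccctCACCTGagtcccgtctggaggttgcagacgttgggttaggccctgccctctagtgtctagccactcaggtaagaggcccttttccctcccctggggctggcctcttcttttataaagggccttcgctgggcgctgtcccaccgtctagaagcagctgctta
The Crb3 window holds 4 such hexamers, those of Cldn4 and Ocln hold 2 each, those of F11r, Tjp3 and Krt8 hold 1 each, and the Jup window holds none.

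Over the kept windows the H3K4me2 libraries held 8687538 to 18185750 counts, the H3K4me1 libraries 4040418 to 8807370, and the IgG libraries 2713014 and 3353574. Values are CPM, a window's counts scaled to the library size after TMM adjustment, and the windows were deposited as windows of a single nominal width, so levels can be set side by side between genes. Of 15 blood progenitor markers, 14 carried H3K4me2 above the 99th percentile of 1482 windows of olfactory and vomeronasal receptor genes, families silent in blood, in the empty-vector cells (median 150.0 CPM). The exception was Erg. Replicate 1 stood apart from replicates 2 and 3 in every construct. The variance between replicate 1 and the others was 9.49 to 17.7 times that of counting alone, against 0.98 to 2.3 between replicates 2 and 3. Replicates 2 and 3 of empty-vector H3K4me1 differed by less than the sampling noise (ratio 0.98) and were counted as 1 sample. The labels do not say whether replicates came from separate transductions or cultures, so p-values measure only the spread between these libraries. In bulk chromatin, fewer cells with a mark and less of the mark per cell cannot be told apart.

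Levels of the 40 members ran from those of silent chromatin to those of active genes, and the share above the silent families was near that of windows in general. In empty-vector cells their median H3K4me2 level was 6.96 CPM, which equals the 99th percentile of the silent receptor families (6.96) and lies below the median of all windows (8.85). Of the 40, 20 lay above that percentile, against 52.3% of all windows. The median H3K4me1 level was 23.4 CPM against 25.1 over all windows, with 20 of 40 above the silent families' 99th percentile (23.6 CPM) and 50.9% of all windows. Housekeeping windows had medians of 97.4 CPM (H3K4me2) and 81.2 CPM (H3K4me1).

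**Figure D1:**
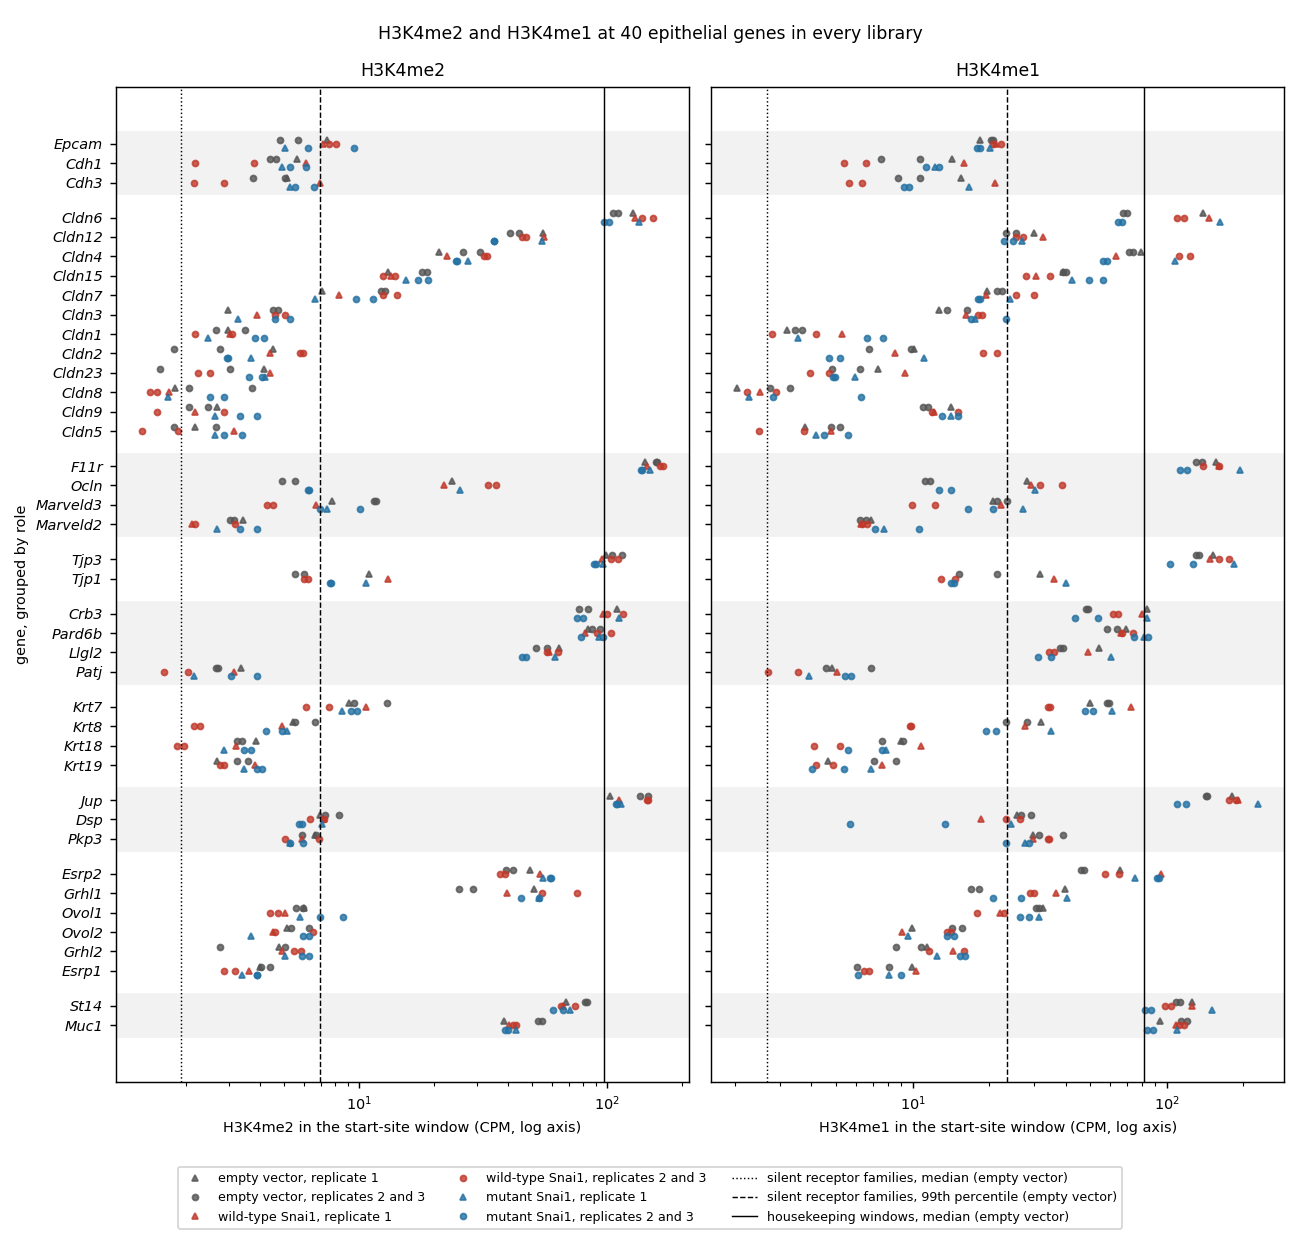
Levels of H3K4me2 (left) and H3K4me1 (right) in the start-site windows of the 40 genes, in CPM on a log axis, with 1 point per library and genes grouped by role. Vertical lines give the empty-vector medians of silent receptor families and housekeeping windows and the 99th percentile of the silent families. F11r, Jup, Cldn6 and Tjp3 lie at or beyond the housekeeping line for H3K4me2, while most claudins, keratins and cadherins lie near the silent families.

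The highest H3K4me2 level belonged to F11r, which encodes the junctional adhesion molecule JAM-A, a surface protein that blood cells also carry. Its listed start site lies 239 bp from that of Gm26641, so the level cannot be given to F11r alone. It stood at 142, 159 and 157 CPM in the empty-vector libraries (replicates 1, 2 and 3), at 145, 163 and 168 with wild-type Snai1 and at 149, 138 and 137 with the mutant. All 9 libraries lay between 137 and 168 CPM, and the 3 groups overlapped. Jup encodes plakoglobin, a catenin shared by desmosomes and adherens junctions, and its start lies 326 bp from that of Gm12348. Its H3K4me2 level was 103, 146 and 136 CPM with the empty vector, 112, 145 and 146 with wild-type and 114, 110 and 109 with mutant Snai1, and its H3K4me1 level, the highest of the 40, was 180, 144 and 143, 191, 187 and 176 and 229, 110 and 119 in the same order. For both marks the mutant's replicates 2 and 3 were lower than those of the wild type, and in replicate 1 the mutant was the higher of the pair. F11r followed in H3K4me1, at 156, 130 and 137, 161, 161 and 139 and 194, 113 and 120 CPM.

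Tjp3, the tight junction scaffold ZO-3, carried 98.7, 115 and 105 CPM of H3K4me2 with the empty vector, 95.5, 111 and 104 with wild-type and 96.3, 90.3 and 88.3 with mutant Snai1. Its paralog Tjp1 (ZO-1) was far lower, at 11, 5.98 and 5.49 CPM with the empty vector. The listed Tjp1 start (chr7:65371244, minus strand) lies inside the gene, whose span reaches 65527850. Which start its window covers is not known. The start sites of Tjp3 and Pip5k1c lie 1382 bp apart, and the Pip5k1c window held 1.15 times the counts of the Tjp3 window, so reads of the pair cannot be told apart. Crb3 and Cldn6 share reads in the same way. Crb3, a polarity protein of the apical membrane, stood at 110, 83.4 and 76.9, 96.5, 116 and 100 and 112, 79.9 and 75.3 CPM of H3K4me2 in the 3 constructs. Its start site is 2338 bp from that of Slc25a23, and both windows held equal counts (ratio 1.0). Cldn6, a claudin of the embryonic epithelium, had 127, 111 and 106, 129, 153 and 138 and 134, 97.2 and 102 CPM, and its start site is 1916 bp from that of Tnfrsf12a, whose window held 0.85 times its counts. Levels of these windows therefore cannot be given to Crb3, Cldn6 or Tjp3 alone. The same holds for Pard6b, 278 bp from the start of Gm39990, for Krt7, 211 bp from that of Gm671, and for Muc1, 1947 bp from that of LOC115489723. For Cldn4, Llgl2 and Esrp2 shared reads are possible but not shown, since the distances given next lie between gene ends and not start sites. Mettl27 lies 2486 bp from Cldn4 and its window held 0.844 times the Cldn4 counts. The nearest other listed start to that of Cldn4 lies 14263 bp away. Tsen54 lies 927 bp from Llgl2 (1.845 times its counts). Esrp2 overlaps 1810019D21Rik (0.883 times its counts) and Nfatc3 (2.413 times).

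St14 encodes the membrane serine protease matriptase and Muc1 a mucin of the apical surface. For H3K4me1 St14 stood at 126, 113 and 109 CPM with the empty vector, 126, 98.2 and 104 with wild-type and 150, 82.1 and 86.6 with mutant Snai1. Muc1 had 94.2, 114 and 120, 109, 112 and 117 and 110, 83.2 and 88.3 CPM. Together with Tjp3, Jup and F11r they were the 5 members with the most H3K4me1 in empty-vector cells. Tjp3 had 152, 130 and 134, 148, 175 and 161 and 184, 103 and 127 CPM of it. The polarity gene Pard6b, a partner of atypical protein kinase C, and Llgl2, a basolateral polarity protein, reached empty-vector means of 88.2 ± 5.2 and 57.6 ± 6.03 CPM of H3K4me2 (SD, n = 3), while the polarity scaffold gene Patj reached 2.89 ± 0.382. Patj has several listed start sites, and which of them its window covers is not known.

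At the other end stood the classical epithelial markers. Cdh1, E-cadherin, the adhesion receptor of adherens junctions, had 5.64, 4.61 and 4.37 CPM of H3K4me2 in the empty-vector libraries, and Epcam 7.45, 5.68 and 4.81. The empty-vector means of the 4 keratins, the filament proteins of simple epithelia, ran from 3.16 ± 0.457 (Krt19) to 10.5 ± 2.1 CPM (Krt7, both SD, n = 3). Among the 12 claudins, which set the permeability of tight junctions, 5 (Cldn6, Cldn12, Cldn4, Cldn15 and Cldn7) lay above 6.96 CPM and the other 7 lay between 2.2 (Cldn5) and 4.06 CPM (Cldn3). Cldn5, known from the endothelium of blood vessels, was the lowest of all 40. Of the 6 splicing and transcription factors, the grainyhead-like gene Grhl1 (34.9 ± 13.7 CPM) and the splicing regulator Esrp2 (43.2 ± 4.9 CPM) had the highest levels. Neither passed over IgG for H3K4me2 in wild-type Snai1 cells (log2 0.54 and -0.53). Esrp1, Grhl2, Ovol1 and Ovol2 lay between 4.12 and 5.84 CPM.

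At most members the window took a larger share of the H3K4me1 reads than of the H3K4me2 reads. The log2 ratio of the H3K4me2 share to the H3K4me1 share (0.5 CPM added) had a median of -0.97 over the members in empty-vector cells, against -0.33 over all windows, and 8 of 40 members lay above 0, against 35.4% of windows. The lowest ratios belonged to Ovol1 (-2.33), Krt7 (-2.30), Pkp3 (-2.24) and Krt8 (-2.18), and the highest to Cldn12 (0.78), Crb3 (0.48) and Pard6b (0.46). Krt7 had H3K4me1 at 49.7, 58.3 and 59.2 CPM and H3K4me2 at 9.11, 12.9 and 9.52 CPM in the same cells. A low ratio does not mean H3K4me1 above background. Against IgG in wild-type Snai1 cells, H3K4me1 did not pass at Krt7 (log2 -0.06) or Pkp3 (-0.47). It was lower than IgG at Ovol1 (-1.11) and Krt8 (-1.45).

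IgG libraries, made from wild-type Snai1 cells, gave the background in each window. With shares of column totals, 7 members held more H3K4me2 than IgG (Crb3, Cldn6, Tjp3, Jup, Pard6b, St14 and F11r), 27 held less, and 6 did not pass (edgeR quasi-likelihood test, adjusted p under 0.05 over all windows). Over all windows 35.6% passed as higher and 55.7% as lower. For H3K4me1 7 passed as higher (Cldn4, Cldn6, Tjp3, Jup, Muc1, St14 and F11r), against 29.0% of windows, and 21 as lower, against 48.9%. With TMM scaling, 37 members passed for H3K4me2, 11 of them as higher, beside 43.0% of windows as higher and 52.6% as lower. For H3K4me1 27 passed, 10 of them as higher, beside 41.6% and 43.7%. The median log2 ratio over IgG was -2.68 for H3K4me2 (-1.89 over all windows) and -0.79 for H3K4me1 (-0.45). A ratio below 0 says that a window took a smaller share of the mark's reads than of the IgG reads.

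**Figure D2:**
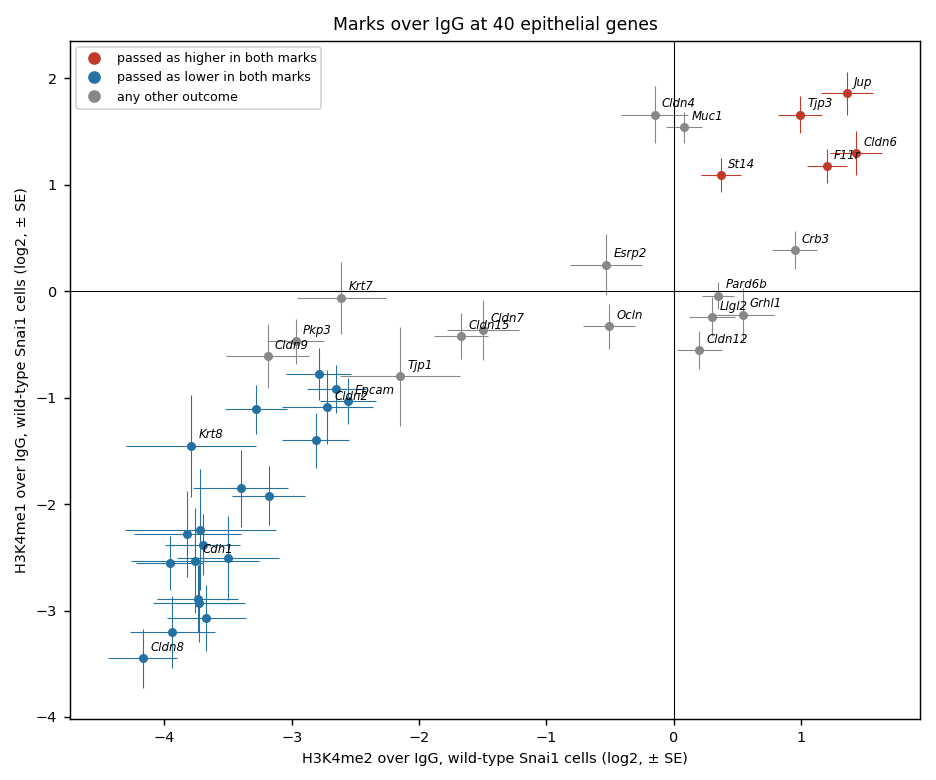
Log2 ratio of H3K4me2 (x axis) and H3K4me1 (y axis) over IgG in wild-type Snai1 cells for the 40 genes, with standard errors of the edgeR fit. Jup, Tjp3, Cldn6, F11r and St14 passed as higher in both marks, Cldn4 and Muc1 as higher in H3K4me1 only, and Krt7 lies near 0 for H3K4me1 but at -2.61 for H3K4me2.

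Cldn6 had the largest H3K4me2 ratio, log2 1.43 (SE 0.203, adjusted p = 2.62e-05), from 129.0, 143.0 and 133.0 CPM of the column total against 59.6 and 40.2 in IgG. F11r came after Cldn6 and Jup (1.36), with log2 1.20 (SE 0.157, adjusted p = 1.28e-05). Both IgG libraries of F11r, at 70.4 and 63.0 CPM, lay below all 3 H3K4me2 libraries (145.0, 152.0 and 162.0). The windows of Cldn4, a claudin of tight epithelia, and Muc1 were high in H3K4me1 alone, at log2 1.66 (SE 0.266, adjusted p = 0.000112) and 1.54 (SE 0.145, adjusted p = 4.04e-06). Their H3K4me2 ratios of -0.15 and 0.08 did not pass, and neighbouring genes may share their reads. Cldn4 stood at 64.1, 118.0 and 111.0 CPM of H3K4me1 against 34.0 and 27.3 of IgG. Cdh1 had the opposite pattern, with IgG at 66.5 and 42.8 CPM, H3K4me1 at 16.1, 5.15 and 6.48, and H3K4me2 at 6.10, 2.04 and 3.65 CPM (log2 -3.76, SE 0.506, adjusted p = 1.6e-05). Cldn8 was the lowest of the 40 for both marks (log2 -4.17 and -3.45).

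Whether Snai1 with or without Lsd1 binding goes with other H3K4 methylation at these start sites was asked in 3 comparisons per mark. No member passed in any of the 6 (edgeR quasi-likelihood test over all windows, adjusted p under 0.05). Calls were as rare over all windows. With wild-type Snai1 against the empty vector 1 of 25742 H3K4me2 windows passed (0.00388%), and 0 (0.0%) passed in each of the other 5 comparisons. At an unadjusted p under 0.05, 5, 2 and 5 members qualified for H3K4me2 (wild type, then mutant, against the empty vector, and last wild type against mutant), beside 7.32%, 4.95% and 9.9% of windows. For H3K4me1 1, 1 and 3 members did, beside 2.88%, 1.61% and 5.24%. DESeq2 also called 0 members in each comparison, and 88, 8, 74, 1, 0 and 30 windows in that order. For wild type against empty vector in H3K4me2, DESeq2 gave Cldn2 no adjusted p and Marveld3 an adjusted p of 0.0607.

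Over the 40 members the differences centred near 0. The median log2 fold change over the 40 was -0.02, 0.00 and -0.02 for H3K4me2 and 0.00, -0.05 and -0.03 for H3K4me1 in the same order of comparisons, beside -0.01, 0.03, -0.04, -0.02, 0.00 and -0.01 over all windows. Of the 40, 19, 20 and 19 had a positive value for H3K4me2 and 20, 13 and 19 for H3K4me1. Single members ranged from -0.97 to 1.39. The comparisons against the empty vector share its libraries, and so do those with the same Snai1 construct.

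**Figure D3:**
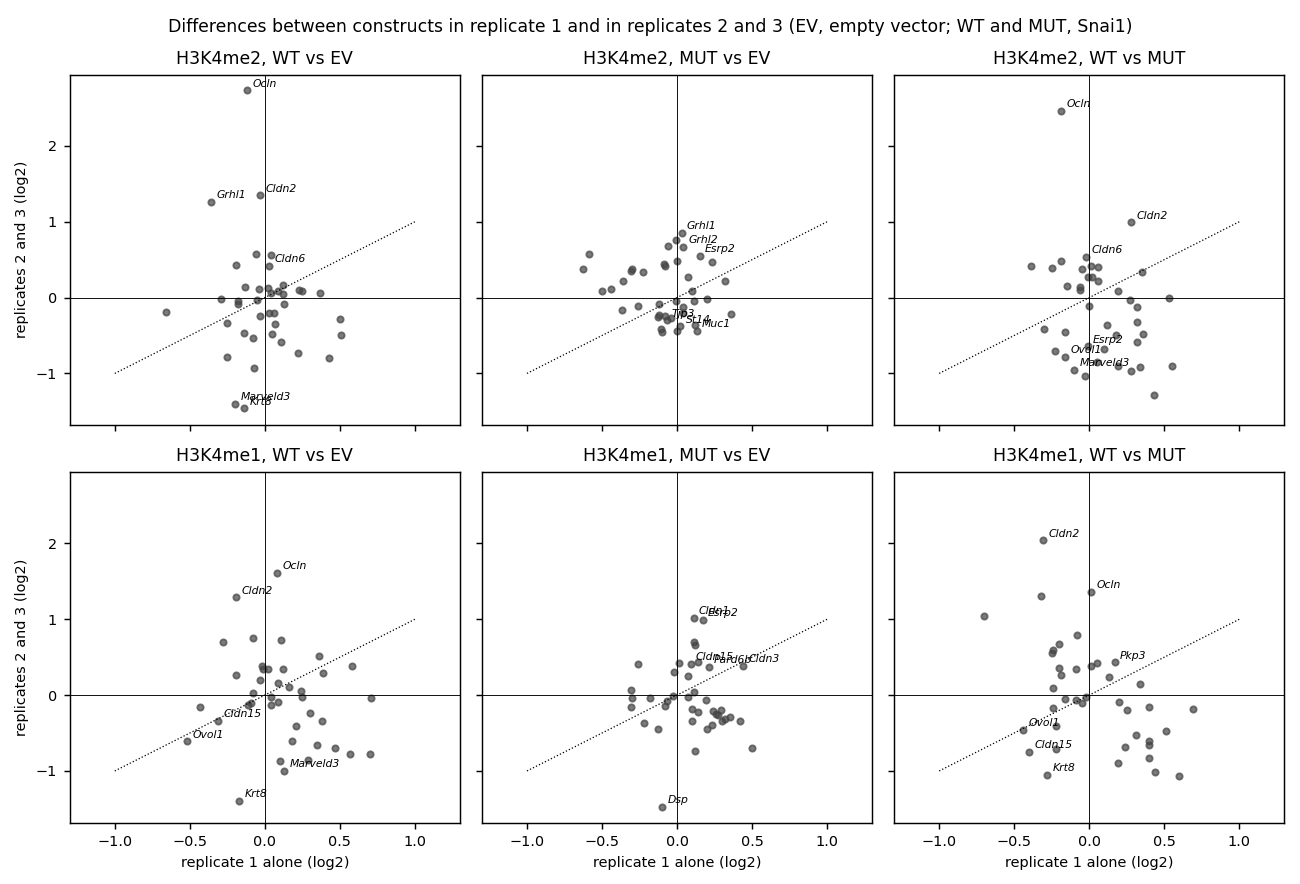
Log2 difference between constructs in replicate 1 alone (x axis) and in replicates 2 and 3 (y axis) for the 40 genes, in each mark and comparison, with the 6 genes of smallest p named and a dotted line of equality. In H3K4me2, wild type against empty vector, Ocln lies at 2.73, Cldn2 at 1.35, Marveld3 at -1.40 and Krt8 at -1.46 on the y axis, and all 4 lie between -0.20 and -0.03 on the x axis.

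Most of the larger differences came from replicates 2 and 3. Fitted alone, these libraries gave 13, 13 and 26 called members for H3K4me2, beside 23.5%, 32.7% and 58.3% of windows, and 20, 13 and 24 for H3K4me1, beside 28.6%, 24.2% and 39.4%. Replicates 2 and 3 differed by little more than counting error, so the spread in that fit may be technical. Leaving out empty-vector replicate 1 gave 3 H3K4me2 calls for wild type against empty vector (Grhl1, Ocln and Marveld3, beside 2.79% of windows), and leaving out wild-type replicate 1 gave 1 (Krt8, beside 0.682%). Leaving out mutant replicate 1 gave 5 for wild type against mutant (Llgl2, Ocln, Cldn6, Ovol1 and Cldn12, beside 16.6%). In replicate 1 the members' H3K4me2 medians were -0.01, -0.05 and 0.03, and the sign was that of replicates 2 and 3 in 23, 18 and 14 of 40 members. Within replicates 2 and 3 whole chromosomes also differed between constructs, and medians are given beside some of the genes on them.

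Ocln encodes occludin, a membrane protein of the tight junction, and showed the widest spread. Its H3K4me2 level was 23.7, 4.9 and 5.49 CPM in empty-vector replicates 1, 2 and 3, 21.9, 35.7 and 33.1 with wild-type Snai1 and 25.4, 6.2 and 6.26 with the mutant. In replicate 1 all 3 constructs were alike, and in replicates 2 and 3 the wild-type libraries lay above those of the other constructs. The counts behind these values were 328, 50 and 49 (empty vector), 383, 327 and 324 (wild type) and 437, 72 and 68 (mutant). The fit gave log2 1.39 (SE 0.609, adjusted p = 0.641) for wild type against empty vector and 1.24 (SE 0.604, adjusted p = 0.505) for wild type against mutant. Replicates 2 and 3 gave 2.73 and 2.46, replicate 1 gave -0.12 and -0.19, and the chromosome 13 median in replicates 2 and 3 was -0.01 and 0.04. With a batch term and replicates 2 and 3 summed, Ocln passed in both comparisons (log2 1.48 and 1.36, adjusted p = 0.0064 and 0.0144), beside 0.342% and 0.45% of windows. H3K4me1 had the same order, at 28.3, 11.2 and 11.7, 29.2, 38.6 and 31.7 and 30.3, 14.2 and 12.7 CPM (wild type against empty vector, log2 0.75, SE 0.426, adjusted p = 1.0). Even in wild-type Snai1 cells neither mark exceeded IgG at Ocln. As shares of column totals, H3K4me2 stood at 21.8, 33.3 and 31.9 CPM against 38.8 and 43.5 in IgG and passed as lower (log2 -0.51). H3K4me1 did not pass (-0.33). The Ocln window had the largest fitted difference among the 40 members in the 6 comparisons, higher with wild-type Snai1 in replicates 2 and 3 and not in replicate 1.

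Marveld3, a tight junction protein related to occludin, had the smallest p for H3K4me2 in wild-type against empty-vector cells. It stood at 7.74, 11.7 and 11.5 CPM with the empty vector, 6.73, 4.26 and 4.5 with wild-type and 7.4, 6.98 and 10.1 with mutant Snai1. All wild-type libraries lay below all others, at log2 -0.97 against the empty vector (SE 0.278, adjusted p = 0.446) and -0.64 against the mutant (SE 0.277, adjusted p = 0.503). Replicates 2 and 3 gave -1.40 and replicate 1 gave -0.20 against the empty vector. Against the mutant, replicates 2 and 3 gave -0.95, where the chromosome 8 median was -0.37. For H3K4me1 it stood at 20.8, 21.4 and 23.6, 22.3, 9.95 and 12.3 and 27.1, 16.5 and 20.8 CPM, with overlapping groups. Both marks at Marveld3 passed as lower than IgG in wild-type Snai1 cells (log2 -3.40 for H3K4me2 and -1.85 for H3K4me1). Marveld2 (tricellulin), which seals the corners where cells meet, had 3.4, 3.14 and 3.02 and 2.11, 2.18 and 3.17 CPM of H3K4me2 with the empty vector and wild-type Snai1, close to the silent families.

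The keratin pair Krt8 and Krt18, whose products pair with each other in filaments of simple epithelia, had the same sign of difference within replicates 2 and 3. Krt8 had 5.42, 6.66 and 5.49 CPM of H3K4me2 with the empty vector, 4.91, 2.29 and 2.15 with wild-type and 5.12, 4.91 and 4.23 with mutant Snai1 (wild type against empty vector, log2 -0.85, SE 0.299, adjusted p = 0.519). Krt18 had 3.83, 3.23 and 3.36, 3.2, 1.97 and 1.84 and 2.85, 3.45 and 3.68 CPM (log2 -0.53, SE 0.266, adjusted p = 0.716). For both genes the wild-type libraries did not overlap those of the empty vector. Replicates 2 and 3 gave -1.46 and -0.79, and replicate 1 gave -0.14 and -0.25. Both genes held less H3K4me2 than IgG in wild-type Snai1 cells (log2 -3.79 and -3.82). Their wild-type replicates 2 and 3 rested on 21 and 21 counts (Krt8) and 18 and 18 counts (Krt18). For H3K4me1 Krt8 stood at 31.9, 23.2 and 28.2, 27.6, 9.74 and 9.89 and 34.9, 21.2 and 19.4 CPM (log2 -0.85, SE 0.428, adjusted p = 1.0), and its wild-type replicate 1 lay among the empty-vector libraries. Libraries of Krt7 and Krt19 overlapped between constructs in all 6 comparisons.

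**Figure D4:**
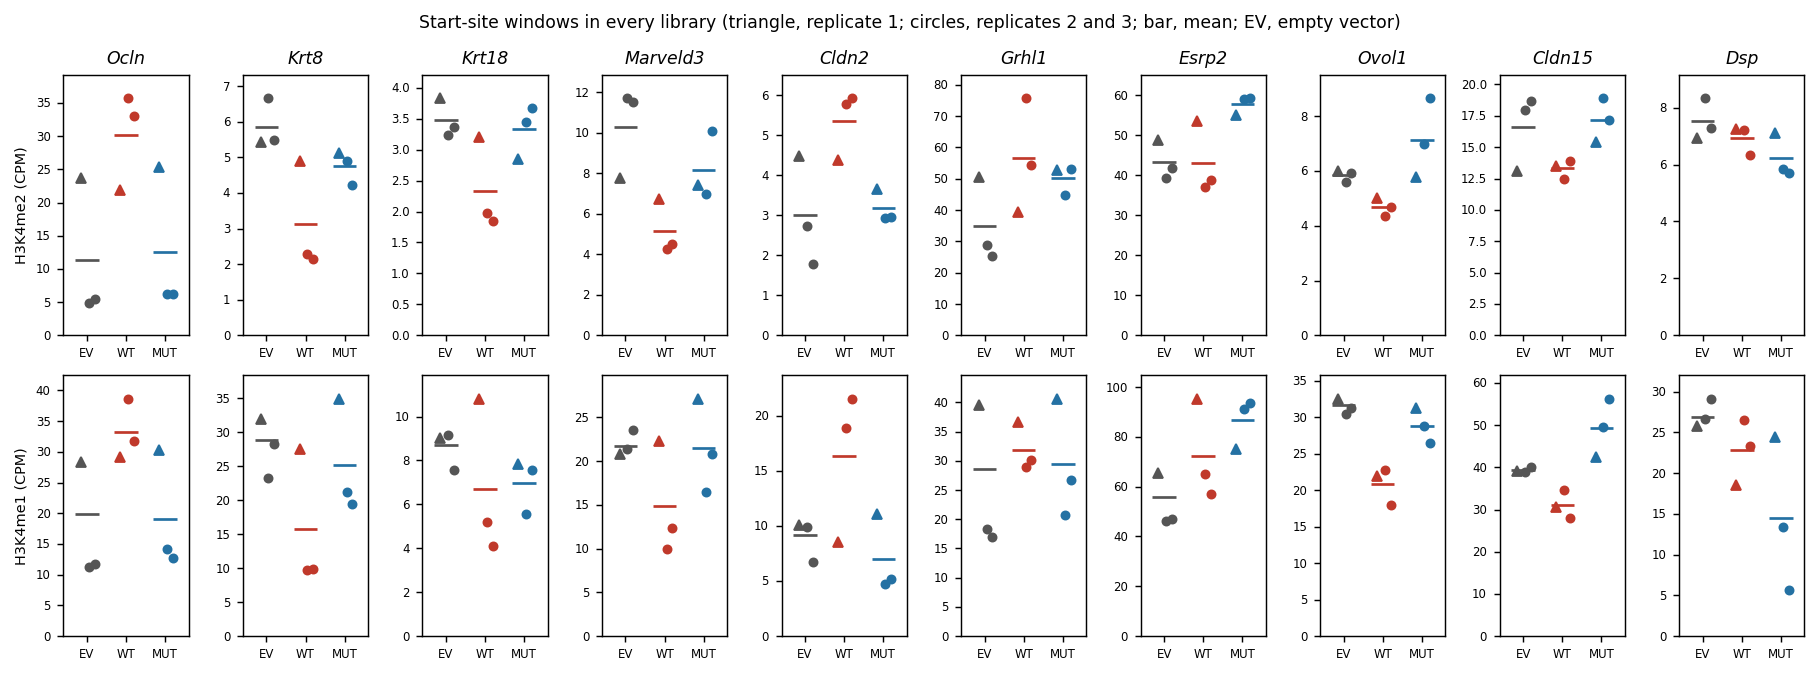
CPM of H3K4me2 (top) and H3K4me1 (bottom) in every library for 10 genes, with replicate 1 as triangles, replicates 2 and 3 as circles and bars at the mean, and axes from 0. Ocln and Cldn2 are highest in wild-type replicates 2 and 3, Krt8 and Marveld3 lowest there, while their replicate 1 values lie close together. Dsp has its lowest H3K4me1 in mutant replicate 3.

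Among the claudins, Cldn2, which forms a cation and water channel in leaky epithelia, had 4.48, 2.74 and 1.79 CPM of H3K4me2 with the empty vector, 4.39, 5.79 and 5.93 with wild-type and 3.67, 2.93 and 2.95 with mutant Snai1. Wild-type libraries lay above all mutant ones (log2 0.73, SE 0.292, adjusted p = 0.503) and overlapped the empty vector (0.78, SE 0.297, adjusted p = 0.55). H3K4me1 stood at 10.1, 9.88 and 6.72, 8.56, 18.9 and 21.5 and 11.1, 4.69 and 5.19 CPM (wild type against mutant, log2 1.17, SE 0.41, adjusted p = 0.872). Here too replicates 2 and 3 gave 2.04 and replicate 1 gave -0.31. In wild-type Snai1 cells Cldn2 passed as lower than IgG in both marks (log2 -2.72 for H3K4me2 and -1.09 for H3K4me1).

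Cldn15, a cation channel claudin of the gut, had the smallest member p for H3K4me1. It stood at 39.1, 39 and 40.1 CPM with the empty vector, 30.6, 34.6 and 28 with wild-type and 42.4, 49.5 and 56.2 with mutant Snai1, and the 3 groups did not overlap. Wild type against mutant gave log2 -0.66 (SE 0.163, adjusted p = 0.847), with -0.40 in replicate 1 and -0.75 in replicates 2 and 3. Against the empty vector the wild type gave -0.34 and the mutant 0.32 (SE 0.179 and 0.18, adjusted p = 1.0 in both). H3K4me2 at Cldn15 stood at 13.1, 18 and 18.7, 13.5, 12.5 and 13.9 and 15.4, 18.9 and 17.2 CPM, where wild-type libraries also lay below the mutant's. Over IgG in wild-type Snai1 cells, Cldn15 passed as lower for H3K4me2 (log2 -1.67) and did not pass for H3K4me1 (-0.42).

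Cldn6 had higher H3K4me2 in all wild-type than in all empty-vector libraries (values above, log2 0.29, SE 0.135, adjusted p = 0.685). It lies on chromosome 17, whose median over all windows in replicates 2 and 3 was 0.42, the same as that of Cldn6 (0.42), which leaves 0.01 after that median is taken off. Cldn1 and Cldn3, barrier-forming claudins, had their smallest p for H3K4me1 with the mutant. Cldn1 stood at 3.21, 3.66 and 3.44 CPM with the empty vector, 5.29, 4.15 and 2.8 with wild-type and 3.55, 7.64 and 6.61 with mutant Snai1 (mutant against empty vector, log2 0.77, SE 0.387, adjusted p = 1.0). Cldn3 stood at 12.7, 13.7 and 16.4, 16.2, 18 and 18.7 and 17.6, 17 and 23.4 CPM (log2 0.47, SE 0.252, adjusted p = 1.0). Between mutant and empty vector Cldn1 overlapped and Cldn3 did not. H3K4me1 at both was lower than IgG in wild-type Snai1 cells (log2 -3.07 and -0.78).

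Among the desmosome genes, Dsp, desmoplakin, which ties keratin filaments to the desmosome, had 25.8, 26.7 and 29.1 CPM of H3K4me1 with the empty vector, 18.6, 26.5 and 23.3 with wild-type and 24.4, 13.4 and 5.67 with mutant Snai1. Mutant against empty vector gave log2 -0.86 (SE 0.427, adjusted p = 1.0), and the lowest library, mutant replicate 3, rests on 24 counts. Its H3K4me2, at 6.94, 8.33 and 7.28, 7.25, 7.21 and 6.34 and 7.1, 5.86 and 5.71 CPM, overlapped between the groups. Dsp was lower than IgG in wild-type Snai1 cells in both marks (log2 -2.65 for H3K4me2 and -0.92 for H3K4me1). Pkp3, plakophilin 3, stood at 29.7, 39 and 31.3, 29.8, 34.2 and 34.5 and 27.7, 23.3 and 28.6 CPM of H3K4me1, with the mutant below both others (wild type against mutant, log2 0.31, SE 0.174, adjusted p = 0.999).

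Esrp2, which keeps epithelial exons in messenger RNA, had the smallest p with the mutant in both marks. Its H3K4me2 stood at 48.7, 39.2 and 41.8 CPM with the empty vector, 53.4, 37 and 38.9 with wild-type and 55.1, 59 and 59.2 with mutant Snai1. Mutant libraries lay above all others, at log2 0.42 against the empty vector (SE 0.144, adjusted p = 0.952), and wild type against mutant gave -0.41 (SE 0.144, adjusted p = 0.503). H3K4me1 was 65.3, 46.1 and 47.2, 95.2, 65.1 and 56.9 and 75.1, 91.1 and 93.5 CPM (mutant against empty vector, log2 0.63, SE 0.245, adjusted p = 1.0). In replicates 2 and 3 Esrp2 gave 0.55 for H3K4me2, and the median of its chromosome 8 was 0.33 there.

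Ovol1 and Ovol2 encode zinc-finger factors that hold the epithelial state. Ovol1 stood at 32.5, 30.5 and 31.3 CPM of H3K4me1 with the empty vector, 22, 22.8 and 17.9 with wild-type and 31.3, 28.8 and 26.4 with mutant Snai1. Wild-type libraries lay below all others, at log2 -0.60 against the empty vector (SE 0.2, adjusted p = 1.0) and -0.46 against the mutant (SE 0.183, adjusted p = 0.897). Against the empty vector, replicate 1 gave -0.52 and replicates 2 and 3 gave -0.61. Its H3K4me2 stood at 6, 5.59 and 5.93, 5.02, 4.37 and 4.7 and 5.76, 6.98 and 8.65 CPM, again with the wild type below both other groups (log2 -0.59 against the mutant, SE 0.226, adjusted p = 0.503). In replicates 2 and 3, wild type against mutant gave -0.46 (H3K4me1) and -0.78 (H3K4me2) at Ovol1. The chromosome 19 medians there were -0.23 and -0.16. Both marks at Ovol1 passed as lower than IgG in wild-type Snai1 cells (log2 -3.28 for H3K4me2 and -1.11 for H3K4me1).

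Grhl1 stood at 50.6, 28.8 and 25.2 CPM of H3K4me2 with the empty vector, 39.5, 75.7 and 54.4 with wild-type and 52.9, 44.9 and 53 with mutant Snai1. Both Snai1 constructs were above the empty vector in replicates 2 and 3 only (log2 1.26 and 0.85), where the chromosome 12 medians were 0.37 and 0.55. The full fit gave 0.68 (SE 0.252, adjusted p = 0.539) and 0.52 (SE 0.252, adjusted p = 0.952). Grhl2, a close relative, stood at 4.77, 2.74 and 5.04 CPM with the empty vector, 4.91, 5.46 and 5.82 with wild-type and 5.01, 6.29 and 5.89 with mutant Snai1 (mutant against empty vector, log2 0.44, SE 0.253, adjusted p = 0.952).

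The remaining members among the smallest p had small differences between the mutant and the empty vector. St14 had 68.2, 82.7 and 81.7 CPM of H3K4me2 with the empty vector, 66.6, 74.1 and 65.3 with wild-type and 70.8, 60.3 and 66.1 with mutant Snai1, and Muc1 had 38.3, 54.6 and 52.7, 40.3, 42.8 and 41.7 and 42.9, 40 and 38.9. Mutant against empty vector gave log2 -0.24 for St14 (SE 0.109), -0.25 for Muc1 (SE 0.138) and -0.21 for Tjp3 (SE 0.103), each with an adjusted p of 0.952 in edgeR. Of the 3, Tjp3 alone had groups that did not overlap. Pard6b stood at 69.1, 58 and 63.9 CPM of H3K4me1 with the empty vector, 66.1, 73.4 and 66.6 with wild-type and 81.4, 74.3 and 84 with the mutant (log2 0.30 against the empty vector, SE 0.16, adjusted p = 1.0), and the chromosome 2 median in replicates 2 and 3 was 0.21.

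Members whose libraries did not overlap between groups are given beside the share of all windows of which the same was true. For wild type against empty vector in H3K4me2 there was 1 higher (Cldn6, beside 6.22% of windows) and 6 lower (Cldn8, Marveld3, Krt8, Krt18, Esrp1 and Ovol1, beside 6.72%). In wild-type Snai1 cells these 6 held less H3K4me2 than IgG, as did 55.7% of windows, and Cldn6 held more. Mutant against empty vector gave 2 higher (Cdh3 and Esrp2, 4.91%) and 3 lower (Tjp3, Krt8 and Esrp1, 1.94%), and wild type against mutant 1 higher (Cldn2, 2.89%) and 4 lower (Cldn15, Marveld3, Esrp2 and Ovol1, 6.33%). For H3K4me1, with 2 empty-vector samples, wild type against empty vector gave 4 higher (Epcam, Ocln, Cldn3 and Grhl2, 5.38%) and 2 lower (Cldn15 and Ovol1, 8.66%). Mutant against empty vector gave 6 higher (Cldn3, Cldn15, Marveld2, Esrp2, Grhl2 and Pard6b, 6.27%) and 3 lower (Krt18, Dsp and Pkp3, 4.19%). Wild type against mutant gave 2 higher (Epcam and Pkp3, 2.81%) and 4 lower (Cldn15, Marveld2, Ovol1 and Pard6b, 5.9%).

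Cdh1, the textbook target of Snai1, did not pass in any comparison, and its groups overlapped in all 6. Its H3K4me2 stood at 5.64, 4.61 and 4.37 CPM with the empty vector, 6.11, 2.18 and 3.78 with wild-type and 4.89, 6.12 and 5.25 with mutant Snai1, and its H3K4me1 at 14.3, 7.5 and 10.7, 15.9, 5.39 and 6.53 and 12.2, 12.7 and 11.3. Wild-type replicates 2 and 3 were the lowest libraries in both marks, while wild-type replicate 1 was the highest in H3K4me1. Cdh3 (P-cadherin) had its lowest H3K4me2 in the same libraries, at 5.14, 3.72 and 5.04, 6.96, 2.84 and 2.15 and 5.24, 6.55 and 5.52 CPM. Cdh1 and Cdh3 lie on chromosome 8. Its medians for wild type against mutant in replicates 2 and 3 were -0.37 (H3K4me2) and -0.47 (H3K4me1).

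Fewer members lay near a Snai1 peak in wild-type cells than with the mutant, and the same was true over all genes. Empty-vector cells have a deposited list of 137 peaks, wild-type cells of 2929 and mutant cells of 12037, with no list per replicate, so these counts have no replicate check. Proximity meant an overlap of at least 1 base between a peak and the gene with 5 kb added at each end. No member was near an empty-vector peak, against 0.588% of 25173 genes. With wild-type Snai1 6 of 40 members were, against 10.2% of genes, namely Cldn4, Crb3, F11r, Jup, Llgl2 and St14. With the mutant it was 17 of 40 (42.5%), against 33.0% of genes. Those were the same 6 and Cdh1, Cdh3, Cldn2, Cldn6, Cldn7, Dsp, Muc1, Ocln, Ovol1, Pard6b and Tjp3. Leaving out peaks that lie only inside a gene, away from its ends, left 5 (wild type, 7.81% of genes), 13 (mutant, 28.4%) and 0 (empty vector, 0.493%).

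The strongest peak near a member in either list lay by Crb3. The authors' fold over local background was 14.71 in the wild-type list (rank 43 of 2929 by -log10 q) and 34.06 in the mutant list (rank 22 of 12037). Both summits lay 1569 to 1585 bp upstream of the Crb3 start site, in front of the 4 E-boxes of the printed promoter and outside that window. They lay nearer to the start of Slc25a23, at 769 bp (wild type) and 753 bp (mutant). H3K4me2 at Crb3, whose window is shared with Slc25a23, overlapped between the constructs in the values above.

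F11r was the 1 member of 26 with a wild-type peak over its promoter window, against 1.91% of 27025 genes, and no member had an empty-vector peak there, against 0.2%. Its wild-type peak (chr1:171437201-171437638, 11.29-fold) had its summit 33 bp from the nearest base of the single E-box of the printed sequence, which lies at -122 from the start site (chr1:171437439-171437444). In the mutant list the peak was 20.8-fold and its summit lay inside the same hexamer. The start of Gm26641 was nearer to these summits (84 and 118 bp) than that of F11r (155 and 121 bp). This is the start site with the highest H3K4me2 of the 40, and its libraries overlapped between constructs in both marks. The E-box of F11r is the CACCTG in the line printed above.

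Mutant peaks also covered the promoter windows of Pard6b and Tjp3, making 3 of 26 with F11r, against 12.9% of genes. At Tjp3 the peak was 7.32-fold and its summit 16 bp from the nearest base of the E-box at -108. At Pard6b (7.78-fold) the summit lay 368 bp before the start, outside the window, and 90 bp from the start of Gm39990. Jup had 2 peaks in each list, 365 and 3830 bp (wild type) or 365 and 3861 bp (mutant) into the gene from its start site, at 6.63- and 5.53-fold with wild-type and 7.03- and 6.13-fold with mutant Snai1. Llgl2 had an internal peak of 13.26-fold (wild type) and 18.66-fold (mutant). Cldn4 had one upstream of its start, at 4756 bp (wild type, 7.92-fold) and 4742 bp (mutant, 12.54-fold), and St14 an internal one of 7.72-fold with wild-type and 3.17-fold with mutant Snai1. The lists were called separately, so these folds are not on a shared scale.

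Cdh1, Dsp, Cldn7, Muc1 and Ocln had mutant peaks of 4.02- to 5.25-fold and none in the wild-type list. The peak of Ocln lay inside the gene, 41139 bp from its start site. At Cldn4, which had both a Snai1 peak and H3K4me1 above IgG, H3K4me1 stood at 78.9, 71.1 and 73.7 CPM with the empty vector, 63.2, 123 and 112 with wild-type and 108, 56.3 and 58.1 with mutant Snai1, and H3K4me2 at 20.9, 30.8 and 26.3, 22.7, 32.8 and 31.8 and 27.5, 24.5 and 24.9. The groups overlapped in H3K4me1. Llgl2 stood at 63.9, 57.1 and 51.8, 58.5, 63.1 and 57.1 and 61.8, 47 and 45.5 CPM of H3K4me2, also with overlap.

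**Figure D5:**
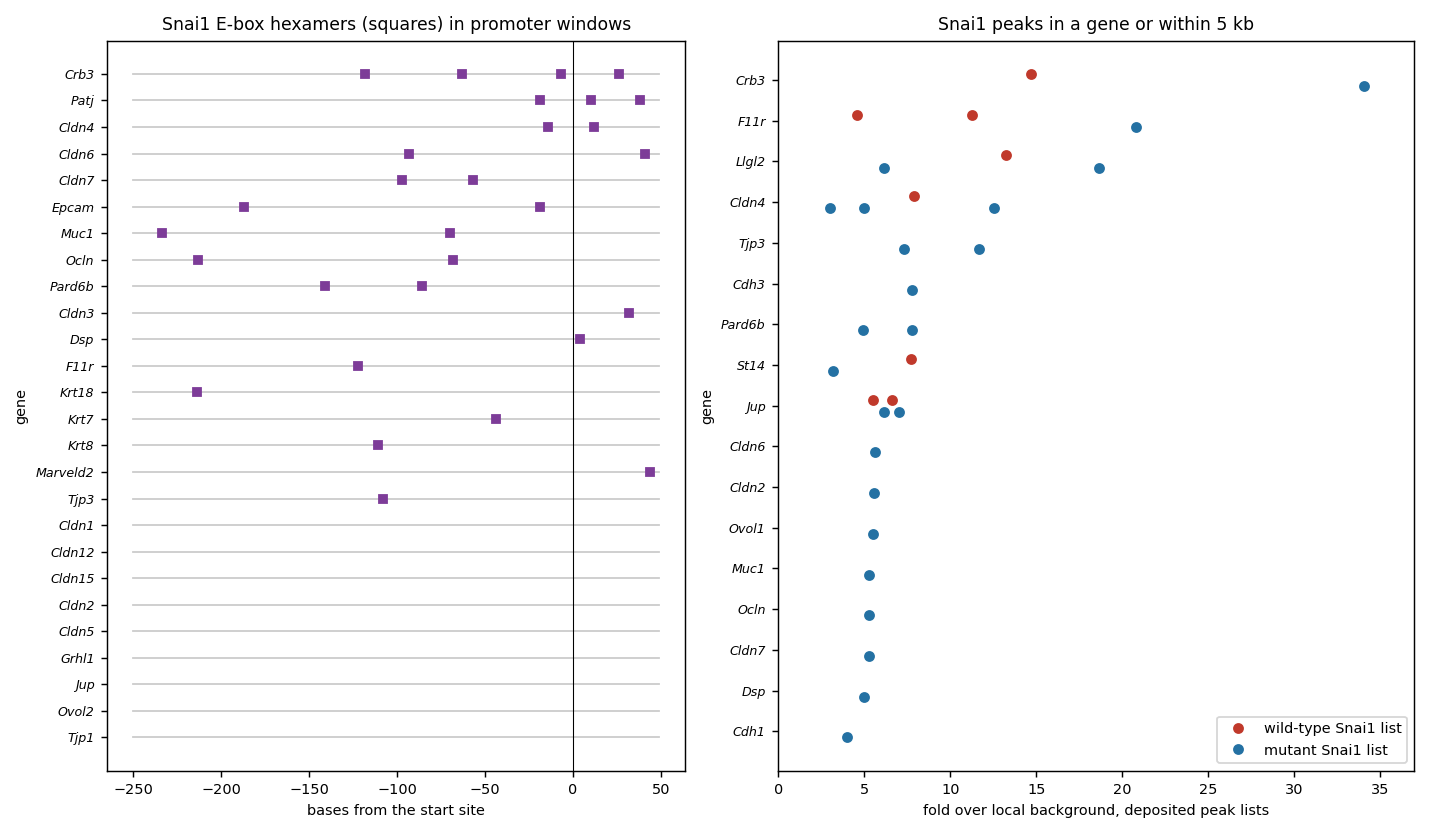
Left, positions of the Snai1 E-box hexamer (squares) in the promoter window of the 26 matched genes, in bases from the start site, with the entry of most hexamers where a gene has several. Right, fold over local background of each deposited Snai1 peak in or within 5 kb of a gene, with Crb3, F11r and Llgl2 highest in both lists and 17 genes with a mutant peak against 6 with a wild-type peak.

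The E-box itself was frequent among the members. CAGGTG, on either strand, stood in a promoter window of 17 of 26 members (65.4%), against 22.6% of 27025 genes, while another E-box hexamer, CAGCTG, stood in 23.1% against 18.3%. The members were listed as Snai1 targets in epithelia, so this share describes the list. Among genes with a wild-type peak over the window 49.6% held CAGGTG (256 of 516), and among those with a mutant peak 25.5% (887 of 3474). Conversely, of the 6098 genes with the hexamer, 4.2% had a wild-type peak over the window and 14.55% a mutant peak. Of the 17 members with the hexamer 5 held more H3K4me2 than IgG (Cldn6, Crb3, F11r, Pard6b and Tjp3), 2 did not pass (Cldn4 and Muc1) and 10 held less (Cldn3, Cldn7, Dsp, Epcam, Krt18, Krt7, Krt8, Marveld2, Ocln and Patj). Of the matched members without the hexamer, 1 held more (Jup), 2 did not pass (Cldn12 and Grhl1) and 6 held less. Over all windows 35.6% held more. F11r had a Snai1 peak over the promoter window in both lists, and Pard6b and Tjp3 in the mutant list only. These 3 were among the 5 members with the hexamer and more H3K4me2 than IgG. A link between such peaks and the mark was not tested.

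The wider pathway was described with a list of other genes. Of 70 further epithelial genes (other claudins, keratins, desmosome, polarity and adhesion genes), 68 were in the table, and 0 passed in each of the 6 construct comparisons. Over IgG, 9 passed as higher and 56 as lower for H3K4me2, and 9 and 49 for H3K4me1. Their median H3K4me2 difference was -0.09 for wild type and 0.08 for mutant against the empty vector, and -0.24 between wild type and mutant, where the median of all windows was -0.04 and that of the mesenchymal list described next was -0.23. Of 26 mesenchymal and transition genes, the set that rises when epithelial cells turn mesenchymal, 0 passed in each construct comparison, and 6 and 10 passed as higher than IgG for H3K4me2 and H3K4me1. Of the 15 blood progenitor markers, 13 passed as higher for each mark, and 0 passed in each construct comparison.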

How the data were processed

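H3K4me2, H3K4me1 and IgG ChIP-seq reads were deposited as raw counts per start-site window, aligned with Subread and counted with featureCounts on GRCm38/mm10, per the submitters' processing notes; versions are not given in the sources used here. Snai1 peaks were called with MACS2, per the same notes, as 1 list per construct. Each peak carries the authors' fold over local background and the authors' -log10 q, and the control used is not given in the sources used here. The deposited count table has 27095 rows, of which 93.0% matched a symbol in the RefSeq table. Dropping 31 rows equal to an earlier row and 20 without reads left 27044.

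Counts were analysed with edgeR 4.0.16 (R 4.3.3; TMM, filterByExpr by construct, quasi-likelihood F-test, two-sided, Benjamini-Hochberg over all windows, threshold 0.05), with all 3 constructs of a mark in a single fit. All 40 members passed the filter. IgG comparisons used column totals as library sizes. Empty-vector H3K4me1 replicates 2 and 3 were summed. DESeq2 1.42.0, other scalings, a replicate block, batch terms and left-out libraries were alternatives. Peaks, gene ends and promoter windows were joined in Python 3.11.15 with pandas 2.3.3.

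The members and lists were chosen with earlier results of these data known. In the mark concerned, values in every library are given for the 5 members highest in each mark with the empty vector, the 6 with the smallest p in each construct comparison and those with a wild-type Snai1 peak within 5 kb. Other members with such values (Cdh1, Cdh3, Epcam, Tjp1, Krt7, Krt18 and Marveld2) were chosen after their values were seen.

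Replicate numbers were taken from the labels. Deviations of same-numbered libraries from their group means correlated at 0.293 to 0.409 (H3K4me2) and 0.174 to 0.305 (H3K4me1) for wild type and empty vector, and at 0.328 to 0.494 and 0.423 to 0.595 for mutant and empty vector. Same-numbered wild-type and mutant libraries correlated at -0.099 to 0.217 (H3K4me2) and -0.039 to 0.268 (H3K4me1). Between a Snai1 construct and the empty vector, differently numbered pairs of replicates 2 and 3 correlated at 0.112 to 0.441. Replicate 1 with replicates 2 and 3 gave -0.515 to -0.171 there. These correlations therefore cannot tell pairing by number from the distance between replicate 1 and the others. The reported fits have no block, so that distance adds to the spread they test against.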

Additional observations from a re-analysis of the deposited data

How the results depend on the processing

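Counts of members called out of 40 are given for H3K4me2 and H3K4me1, with wild type and then mutant compared to the empty vector, and wild type to mutant last. The replicate block called 0 members in all 6 comparisons and changed no other member call, while windows called were 5, 0 and 12 for H3K4me2 and 2, 0 and 2 for H3K4me1. For wild type against mutant the samples share only a number, with same-numbered correlations of 0.09, -0.099 and 0.217 (H3K4me2) and 0.172, -0.039 and 0.268 (H3K4me1). With a batch term and replicates 2 and 3 summed, 1 member (Ocln) was called for H3K4me2 in wild type compared to empty vector and 1 (Ocln) in wild type compared to mutant, and windows called were 89, 19 and 117 (H3K4me2) and 22, 1 and 19 (H3K4me1). A batch term alone called 23, 0 and 22, and 2, 0 and 30 windows. Replicates 2 and 3 alone called 13, 13 and 26 members for H3K4me2 and 20, 13 and 24 for H3K4me1. Leaving out each library in turn gave 0 to 3 members for H3K4me2 wild type against empty vector and 0 to 5 for wild type against mutant. H3K4me2 windows called were 719 (wild type) and 407 (mutant) against the empty vector without empty-vector replicate 1. They were 176 against the empty vector and 247 against the mutant without wild-type replicate 1. Without mutant replicate 1 they were 620 for mutant against empty vector and 4289 for wild type against mutant, with 211 for H3K4me1 in the latter. The median member log2 difference ranged from -0.15 to 0.01 (H3K4me2, wild type against empty vector), -0.13 to 0.02 (H3K4me2, wild type against mutant) and -0.14 to 0.25 (H3K4me1, wild type against mutant) with a library left out. Scaling on silent receptor families called 63, 15 and 51 H3K4me2 windows. It moved the median of all windows to 0.12, -0.13 and 0.25 and that of the members to 0.11, -0.14 and 0.26. For wild type against mutant in H3K4me2 the member median was -0.12 in replicates 2 and 3 alone and -0.19 there after centring each chromosome, an alternative chosen after seeing the data. Members over a promoter window numbered 1 for wild-type and 3 for mutant peaks, and with a -log10 q of at least 10, 9 were near a mutant peak (18.1% of genes) and 5 near a wild-type peak (4.5%). The cause of these changes was not tested. Of 660 alternatives for named members, 582 kept direction and side of the threshold, 44 passed where the reported fit did not and 34 were values without a test that moved. In replicate 1 alone 10 of 36 had the other sign, and in each of the other alternatives 0 did. Low counts limit members such as Dsp, whose mutant replicate 3 held 24 H3K4me1 counts.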
